A study of Mus musculus with 12 samples.

Results

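RNA was sequenced from the kidneys of cystic mice that carried or lacked the miR-17 motif in the Pkd2 3′-UTR. The 6 cystic mice were taken by their labels, 3 with the motif deleted (mice 28, 29 and 30) against 3 with an intact motif (mice 25, 26 and 27), out of 12 mice in the series, and 24642 of the 54532 genes in the table had enough reads to be tested. All 6 mice were 18 days old, of the strain C57BL/6 by their labels (C57BL/6 J in the study's methods), and carried Ksp-Cre with the Pkd1 RC allele, a missense allele, over a floxed Pkd1 allele. Their Pkd2 genotype was +/+ or Δ17/Δ17, the latter with the motif deleted from both alleles by CRISPR/Cas9. The remaining 6 mice, which had no Cre and were noncystic, were 3 Pkd2 +/+ and 3 Pkd2 Δ17/Δ17 mice with the same Pkd1 RC and floxed alleles, and they serve here as the control for the deletion without cysts. The Ksp (cadherin 16) promoter drives Cre in tubule epithelium, so that other cells of these kidneys keep the floxed Pkd1 allele, and each library is 1 whole right kidney.

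Pkd1 and Pkd2 encode Polycystin-1 and Polycystin-2, partners in a receptor and channel complex of the primary cilium, and inherited loss of either causes autosomal dominant polycystic kidney disease. A microRNA lowers a transcript by pairing its seed, bases 2 to 8, with a complementary stretch of the 3′-UTR, and the miR-17 family is known to rise in cystic kidneys and to promote cyst growth. In cystic kidneys the tubules dilate, nephron segments lose their transport genes, and macrophages and matrix gather between them.

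The sequence that sets the groups apart is shown first, as the unedited reference has it. Pkd2 (ENSMUSG00000034462) spans chromosome 5, 104459450 to 104505819, plus strand, in GRCm38, and its 3′-UTR of 2131 nucleotides, in exon 15 of 15, holds 1 match to the miR-17 seed, at 104503821 to 104503828, which is nucleotide 133 after the stop codon. The 30 bases at chr5:104503810-104503839 are printed with the 8-base match in capitals. Its last A lies opposite base 1 of the miRNA, outside the seed, and the bases before it pair with the seed.
Pkd2 site: tataattttctGCACTTTAatttattttac
The mature miRNAs below, from RefSeq on GRCm38.p6, share the seed that pairs with this match, and the seed is in capitals. They are 6 of the 7 mature mouse miRNAs in that table with the seed; miR-6383, which is not of this family, is the other.
miR-17-5p: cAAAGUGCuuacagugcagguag
miR-20a-5p: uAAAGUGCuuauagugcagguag
miR-20b-5p: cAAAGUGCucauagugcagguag
miR-93-5p: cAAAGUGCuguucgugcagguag
miR-106a-5p: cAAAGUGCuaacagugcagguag
miR-106b-5p: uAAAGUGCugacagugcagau

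Some properties of the 6 cystic libraries bear on the results. Total counts ran from 19326839 to 24453033. Cdh16, the tubule cadherin behind the Ksp promoter, was at 1489 ± 38.4 CPM (read counts scaled to a common library size and corrected for composition; SD, n = 3) in the intact cystic group. It was at 1494 ± 106 CPM (SD, n = 3) with the deletion, so tubule RNA was present in both. On the first principal component, with 65.2% of the variance, the cystic Pkd2 +/+ mice lay at 39.4 to 51.3, the cystic Pkd2 Δ17/Δ17 mice at 19.3 to 34.4 and the noncystic mice at -39.1 to -30.9. Genes of the adrenal gland, which sits on the kidney, summed to 487 CPM in mouse 30 and 69.1 CPM in mouse 27, against 4.92 to 6.68 CPM in the other 4 cystic mice. Sex is not in the labels; by the level of Xist, the RNA that silences one X chromosome, mice 25, 26 and 28 were female and mice 27, 29 and 30 male. The part of adrenal RNA and of sex in the results was not tested beyond the fits given below without mice 27 and 30 and with sex as a covariate.

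Pkd2 itself was higher with its motif deleted. The cystic Pkd2 +/+ mice stood at 232, 233 and 213 CPM and the cystic Pkd2 Δ17/Δ17 mice at 337, 336 and 307 CPM. The groups did not overlap, and the log2 fold change was 0.53 (standard error 0.08; quasi-likelihood test of edgeR, Benjamini-Hochberg adjusted p = 0.00250). Without the mice that held adrenal RNA the same log2 fold change was 0.53 (edgeR, adjusted p = 0.0166). Noncystic Pkd2 +/+ mice stood at 217, 194 and 219 CPM and noncystic Pkd2 Δ17/Δ17 mice at 277, 286 and 270.5 CPM, also without overlap but short of the threshold (log2 fold change 0.40, standard error 0.08; edgeR, adjusted p = 0.771). The edgeR p for noncystic mice is adjusted over all 24642 genes tested, of which 1 was called there. It does not show that Pkd2 was unchanged in noncystic kidneys. A different effect of the deletion with and without cysts was not shown (interaction 0.13 on the log2 scale; edgeR, adjusted p = 0.818). Pkd1, which shares exon sequence with Tsc2 on the other strand, was at 76.4, 72.1 and 66.0 CPM against 81.6, 67.4 and 70.9 CPM, with overlapping groups and a log2 fold change of 0.04 (standard error 0.11; edgeR, adjusted p = 0.926). Of the 19 tested genes of a list of polycystins and other cystic disease genes, 1 passed the test, which was Pkd2.

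**Figure D1:**
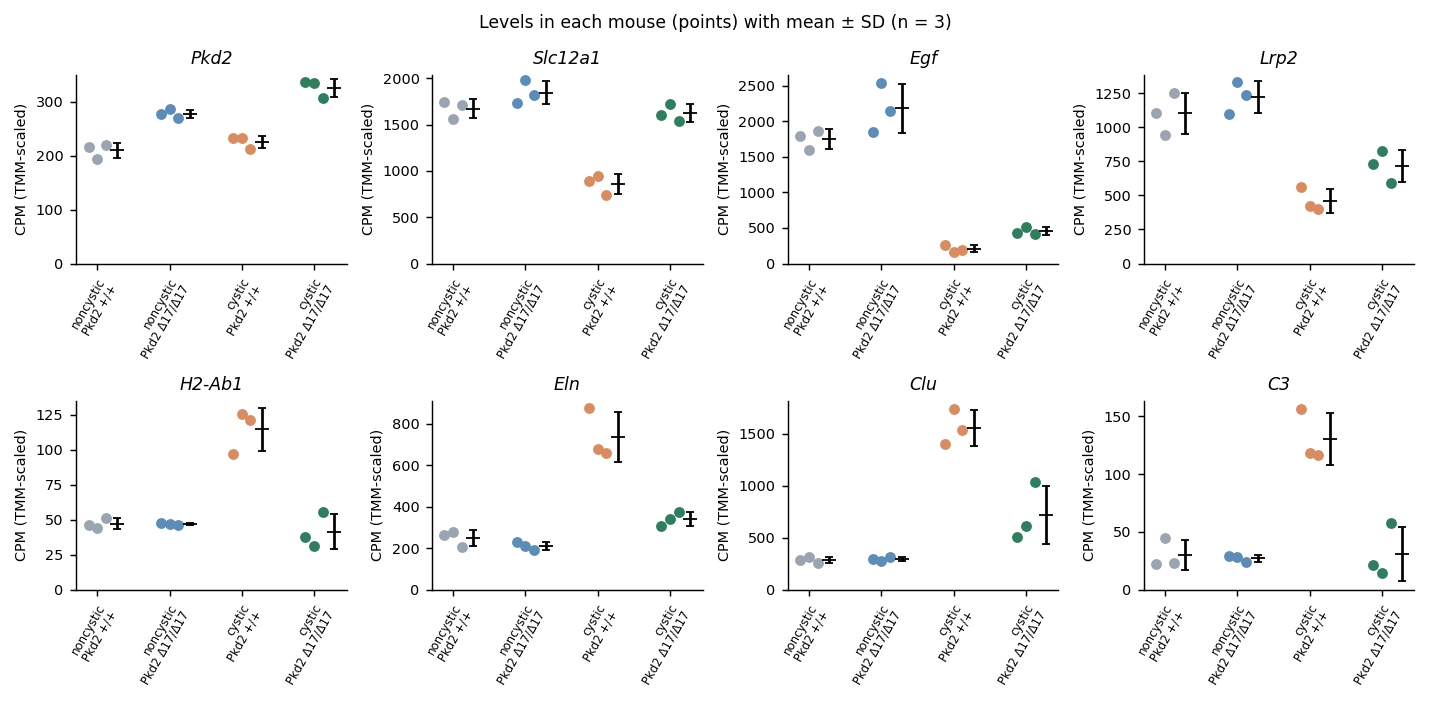
CPM (vertical axes, from 0) of 8 genes in each mouse of the 4 groups, with the mean and SD (n = 3) as a bar beside the points. Pkd2 is higher in both Δ17/Δ17 groups, with 307 to 337 CPM in the cystic one. The other 7 genes, for which the cystic groups also lie apart, are all genes called between those groups.

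Across the transcriptome, 549 of 24642 genes (2.23%) passed an adjusted p of 0.05 between the cystic groups, 293 higher with the deletion (1.19%) and 256 lower (1.04%). Of these, 117 changed at least 2-fold, 45 higher and 72 lower. Log2 fold changes of the 549 genes ran from -3.45 to 3.03, with a median size of 0.65, and 531 of the genes code for proteins. In 547 of the 549 the cystic groups did not overlap, so a lack of overlap adds little to a call. Among the 13848 better measured genes, with an average log2CPM of 1 or more, 3.76% were called. Counts of called genes in each list of this report stand against these shares. Of the 549 genes, 163 share exon sequence with another gene. Because the strand setting of the counting was not stated, reads of such a pair cannot be told apart, and the values of these genes are uncertain, as is said where they are named. The median log2 fold change of all genes tested was 0.00. The count moved with single mice: it was 130 without mouse 27, 127 without mouse 28, 118 without mouse 29, and 861 and 759 without mice 25 and 30. Without mice 27 and 30 together it was 322, of which 269 were among the 549. Of the 549, 91 were called whichever of the 6 cystic mice was left out, 59 higher and 32 lower. The spread behind these calls was estimated from cystic and noncystic mice together. With the cystic groups fitted alone 167 genes were called, 160 of them among the 549. Of 84 called genes that were chosen for naming, 43 lost their call in that fit, 41 kept it and 0 changed direction. Many adjusted p-values given here for single genes thus depend on including the noncystic mice. With sex as a covariate 560 genes were called, 461 of them among the 549. The same test called 1 gene between the noncystic groups (0.00406%).

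**Figure D2:**
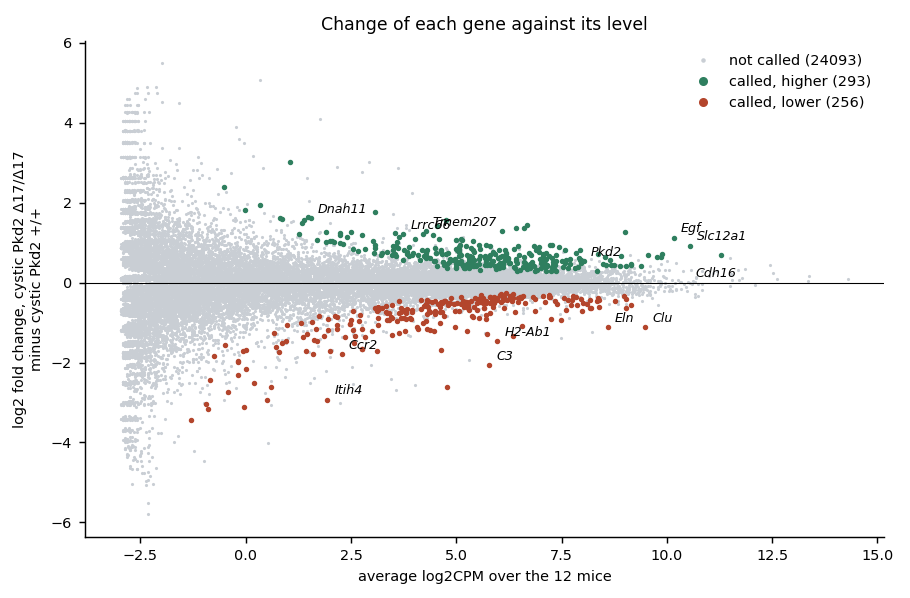
Log2 fold change of each tested gene between the cystic groups (vertical axis) against its average log2CPM over the 12 mice (horizontal axis), with 293 genes called higher in green, 256 called lower in red and the rest in grey. Genes described in the text are named, among them Pkd2 and Cdh16, which lies at 0.00.

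**Figure D3:**
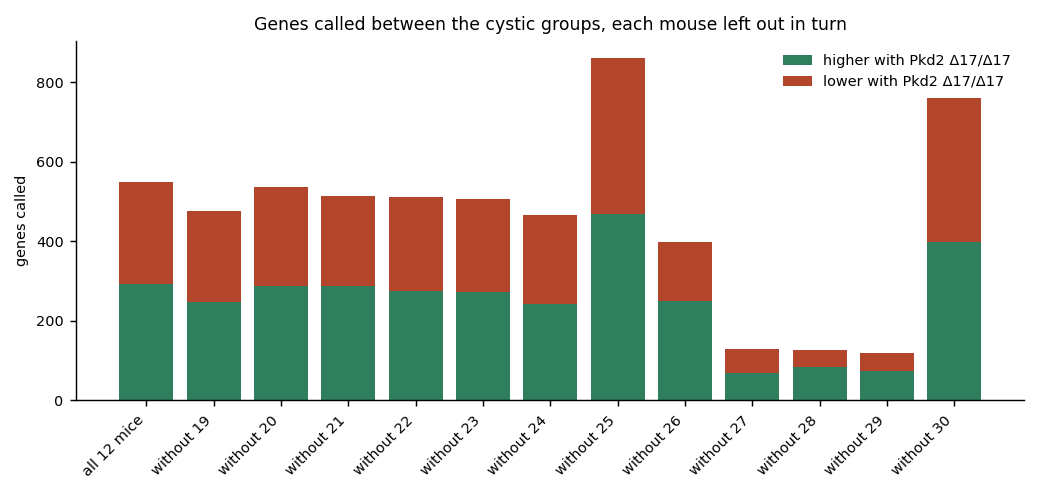
Number of genes called between the cystic groups (bars, split by direction) in the fit of all 12 mice and with each mouse left out. The count was 549 with all mice and 118 to 130 without mouse 27, 28 or 29.

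The thick ascending limb, the last part of the loop of Henle, reabsorbs salt, calcium and magnesium. Of 24 tested genes of this segment, 13 were higher with the deletion, against 1.19% of all genes, and 0 were called lower. Among the better measured genes 3.76% were called in either direction. The median log2 fold change was 0.57 for the list against 0.00 for all genes. In 4 of the 24 the change was below 0, down to -0.78. The deleted mice all lay above the intact ones in 15 genes and all below in 2. Like all lists here, this one was written with earlier results of these data known, so its count is not a test of the segment. Among the 13 were Slc12a1, Bsnd, Cldn10, Egf, Casr, Ptger3, Tmem207, Tmem72, Sostdc1, Irx1, Ppp1r1a and Wfdc15b, and log2 fold changes of the 13 ran from 0.39 to 1.29. Slc12a1, the Na-K-2Cl cotransporter that loop diuretics block, stood at 886, 942 and 735 CPM in Pkd2 +/+ mice and at 1607, 1726 and 1538 CPM in Pkd2 Δ17/Δ17 mice. The lowest deleted mouse was thus well above the highest intact one, and the log2 fold change was 0.93 (standard error 0.10; edgeR, adjusted p = 0.000704). Noncystic kidneys averaged 1674 CPM with Pkd2 +/+ and 1844 CPM with Pkd2 Δ17/Δ17. Tmem207, a small membrane protein of the distal nephron, went from 5.11, 6.36 and 5.08 CPM to 12.3, 15.6 and 12.5 CPM, without overlap, a log2 fold change of 1.29 (standard error 0.14; edgeR, adjusted p = 0.000594).

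Egf, the growth factor that this segment and the distal convoluted tubule release into urine, was at 267, 167 and 194 CPM against 432, 516 and 418 CPM, a log2 fold change of 1.12 (standard error 0.15; edgeR, adjusted p = 0.00180). Every deleted mouse lay above every intact one, while the noncystic groups averaged 1751 and 2182 CPM, and Egf is uncertain because it shares exon sequence with genes on the other strand. Ppp1r1a, an inhibitor of protein phosphatase 1, was at 103, 94.7 and 93.0 CPM against 152, 183 and 173 CPM, at a log2 fold change of 0.80 (standard error 0.09; edgeR, adjusted p = 0.000704). Its relative Ppp1r1b, which is on no list and overlaps a gene on the other strand, was at 9.29, 8.47 and 7.06 CPM against 19.9, 15.2 and 17.2 CPM (log2 fold change 1.07, standard error 0.12; edgeR, adjusted p = 0.000704). Both inhibitors rose without overlap between the groups. Umod, the uromodulin gene and the most used marker of the segment, was at 869, 1102 and 638 CPM against 1250.3, 1190.4 and 1370.3 CPM, without overlap, but did not pass the test and shares exon sequence with a gene on the other strand (log2 fold change 0.55, standard error 0.16; edgeR, adjusted p = 0.102). The count for the list was 11 to 14 with each of the 12 mice left out and 11 without mice 27 and 30. In whole-kidney RNA, more or fewer cells of a segment and more or less RNA per cell cannot be told apart.

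The thin limbs join the proximal tubule to this segment. Of 10 tested thin limb genes 3 were higher and 0 lower, with a median of 0.41, and Slc14a2 and Aqp1 were among the 3. Slc14a2, the urea transporter of the inner medulla, went from 25.7, 74.6 and 36.6 CPM to 131, 109 and 127 CPM (log2 fold change 1.43, standard error 0.26; edgeR, adjusted p = 0.00902, and 0.0599 without mouse 27). Aqp1, the water channel of the proximal tubule and descending limb, was at 429, 524 and 356 CPM against 807, 673 and 616 CPM (log2 fold change 0.68, standard error 0.13; edgeR, adjusted p = 0.0111). Its call was lost without mouse 27 (edgeR, adjusted p = 0.0599) and without mouse 28 (edgeR, adjusted p = 0.0715). For both genes the groups did not overlap, and the list kept 1 call without mouse 27 and 2 without mouse 28. Without mouse 25 it had 3 higher and 2 lower members and a median of 0.19, without mouse 30 it had 3 higher and 1 lower, and without mouse 26 the median was 0.79. DESeq2, and edgeR with sex as a covariate, each called 3 higher and 2 lower.

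In the distal convoluted and connecting tubule 1 of 19 tested genes was higher (5.26%, against 3.76% of the better measured genes in either direction). It was the monocarboxylate transporter Slc16a7, which overlaps a gene on the other strand, and the list's median was 0.18. The median was 0.03 without mouse 26 or 29 and 0.29 without mouse 25. The call of Slc16a7 was lost without any one of mice 26 to 29 (edgeR, adjusted p = 0.0982 to 0.163). Intercalated cells had 0 of 16 genes called by edgeR, with a median of 0.03; 3 were at an unadjusted p under 0.05, limma called 0 and DESeq2 1. That median ran from -0.16 without mouse 29 to 0.21 without mouse 25.

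Of 18 collecting duct principal cell genes 2 were lower and 0 higher, with a median of -0.31 and 14 of 18 below 0. The deleted mice all lay below the intact ones in 9 of the 18, against 10.2% of all genes, and all above in 0. DESeq2 called 7 lower, limma 2 and edgeR with robust dispersions 0. Both genes called by the main test are transcription factors of the duct. Elf5 was at 49.1, 52.6 and 40.4 CPM against 20.3, 34.0 and 25.2 CPM (log2 fold change -0.84, standard error 0.19; edgeR, adjusted p = 0.0322), and Gata3, which overlaps genes on both strands, at 109.8, 88.4 and 109 CPM against 49.7, 74.9 and 77.5 CPM (log2 fold change -0.61, standard error 0.14; edgeR, adjusted p = 0.0323). Neither pair of groups overlapped, and the noncystic groups averaged 14.3 and 16.2 CPM for Elf5 and 32.3 CPM in both for Gata3. Elf5 lost its call without mouse 26, 27, 28 or 30 (edgeR, adjusted p = 0.0610 to 0.182), and Gata3 without mouse 25, 27, 28 or 29 (edgeR, adjusted p = 0.0529 to 0.139). The list had 0 calls without mouse 27, mouse 28 or mice 27 and 30 together, 1 without mouse 25, 29 or 30 and 5 without mouse 26. Aqp2, the vasopressin-regulated water channel of the duct, averaged 768 ± 556 CPM (SD, n = 3) and 641 ± 188 CPM (SD, n = 3), and its groups overlapped.

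**Figure D4:**
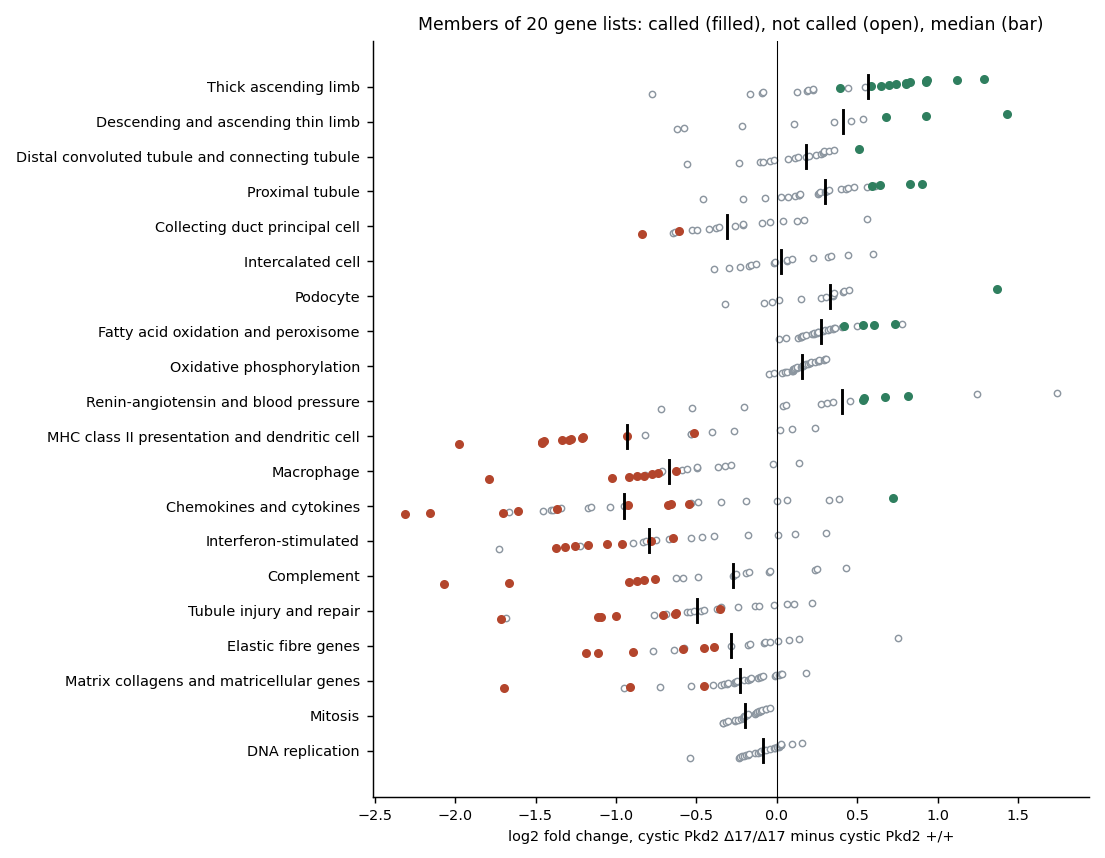
Log2 fold change between the cystic groups (horizontal axis) of each tested member of 20 gene lists, filled where called and open where not, with the median of the list as a bar. Thick ascending limb genes lie mostly above 0 (median 0.57), and MHC class II (median -0.93), macrophage and chemokine genes mostly below.

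Proximal tubule genes leaned upward, with few calls. Of 26 tested genes 4 were higher and 0 lower, the median was 0.30, and 23 lay above 0. The 4 were Slc5a8, Slc7a13, Lrp2 and Cubn. Slc5a8, a lactate transporter of the brush border, was at 66.0, 58.2 and 41.2 CPM against 118, 105 and 86.1 CPM (log2 fold change 0.90, standard error 0.14; edgeR, adjusted p = 0.00320) and was called whichever mouse was left out. Lrp2 encodes megalin, the receptor that takes filtered protein back up, and went from 560.1, 419 and 399.6 CPM to 728, 825 and 594 CPM (log2 fold change 0.64, standard error 0.14; edgeR, adjusted p = 0.0308). Its groups did not overlap, and the call was lost without mouse 26, 27, 28 or 29 (edgeR, adjusted p = 0.0905 to 0.163). Without mouse 27, 28 or 29 the list kept 1 call, without mouse 26 it kept 2, and without mouse 25 or 30 it had 6 and 7. The median was 0.16 without mouse 26.

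Fatty acid oxidation is the main energy source of proximal tubule cells. All 28 tested genes of fatty acid oxidation and the peroxisome had a log2 fold change above 0, with a median of 0.27, and 4 passed the test: Acox2, Acaa1b, Ppargc1b and Acadm. In 19 of the 28 the cystic groups did not overlap, against 8.79% of all genes with the deleted mice higher. Acox2, a peroxisomal oxidase of branched fatty acids and bile acid precursors, was at 31.2, 22.4 and 25 CPM against 38.0, 46.7 and 35.1 CPM (log2 fold change 0.60, standard error 0.12; edgeR, adjusted p = 0.0189). Ppargc1b, a coactivator of mitochondrial genes, went from 5.65, 5.19 and 6.36 CPM to 9.85, 11 and 7.79 CPM (log2 fold change 0.74, standard error 0.17; edgeR, adjusted p = 0.0313). Both lost their call without any one of mice 26 to 29 (edgeR, adjusted p = 0.0585 to 0.165), and the list had 0 calls in each of those 4 fits and 2 without mice 27 and 30. Ppara, the nuclear receptor for fatty acids, was at 16.7, 9.84 and 15.6 CPM against 24.3, 18.4 and 17 CPM and did not pass the test (log2 fold change 0.50, standard error 0.22; edgeR, adjusted p = 0.295). Nuclear genes of oxidative phosphorylation had 0 of 31 called by edgeR, 0 by limma and 3 by DESeq2, and 11 at an unadjusted p under 0.05, with a median of 0.15 and 29 of 31 above 0, and the groups lay apart with the deleted mice higher in 19 of them. Without mouse 28 that median was 0.09.

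Genes of the renin-angiotensin system and blood pressure had 4 of 16 tested members higher and 0 lower, with a median of 0.40. Ace, which makes angiotensin II and sits on the proximal brush border and endothelium, was at 119, 146 and 89.8 CPM against 238, 218 and 168 CPM (log2 fold change 0.81, standard error 0.17; edgeR, adjusted p = 0.0194) and overlaps a gene on the other strand. Agtr1a, the receptor of angiotensin II, was at 26.3, 21.5 and 25.8 CPM against 38.3, 36.2 and 32.7 CPM (log2 fold change 0.54, standard error 0.11; edgeR, adjusted p = 0.0172). The groups did not overlap for either gene, and the endothelin receptor Ednrb was also called. The list had 0 calls without mouse 27, 28 or 29, 2 higher and 1 lower without mouse 26, and 4 without mice 27 and 30. Its median was 0.26 without mouse 28. Without mouse 27, 28 or 29 the adjusted p of Ace and Agtr1a lay between 0.0551 and 0.121 by edgeR, and for Agtr1a it was 0.0535 without mouse 26.

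MHC class II molecules present antigen on dendritic cells, macrophages and B cells. Of 19 tested genes of MHC class II presentation and dendritic cells, 11 were lower with the deletion, against 1.04% of all genes, and 0 were called higher. Among the better measured genes 3.76% were called in either direction. The median was -0.93, and 3 of the 19 lay above 0. This list too was written with earlier results of these data known. The 11 were H2-Aa, H2-Ab1, H2-Eb1, H2-DMa, H2-DMb1, H2-DMb2, Cd74, Ciita, Itgax, Cd209a and Ctss, with log2 fold changes from -1.97 to -0.51. H2-Ab1, the beta chain of a class II molecule, was at 97.2, 126 and 121 CPM in Pkd2 +/+ mice and at 37.4, 31.6 and 55.6 CPM in Pkd2 Δ17/Δ17 mice. The groups were wide apart, at a log2 fold change of -1.46 (standard error 0.15; edgeR, adjusted p = 0.000594), and the noncystic groups averaged 47.1 and 47.0 CPM. Cd74, the invariant chain that escorts class II molecules, went from 116, 156 and 182 CPM to 54.8, 44.2 and 80.4 CPM (log2 fold change -1.34, standard error 0.18; edgeR, adjusted p = 0.00146), and it shares exon sequence with a microRNA gene. H2-Eb1, another class II beta chain, went from 67.8, 94.5 and 113 CPM to 32.9, 29.98 and 49.4 CPM (log2 fold change -1.29, standard error 0.18; edgeR, adjusted p = 0.00175). In all 3 genes the groups did not overlap. H2 genes are a family of similar sequence, so reads may be split between members. The list's summed level was 470.2, 626 and 659 CPM against 249, 229 and 337 CPM, and its count was 6 to 11 with single mice left out, with 7 without mouse 27 or 28, 6 without mouse 29 and 8 without mice 27 and 30.

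Of 20 tested macrophage genes 8 were lower and 0 higher, with a median of -0.67 and 19 below 0. The deleted mice all lay below the intact ones in 12 of the 20, against 10.2% of all genes. The chemokine receptor Ccr2, carried by monocytes that enter from blood, was at 14.7, 9.01 and 6.64 CPM against 2.5, 2.35 and 3.94 CPM (log2 fold change -1.79, standard error 0.28; edgeR, adjusted p = 0.00415) and was called whichever mouse was left out. Noncystic kidneys averaged 2.82 and 2.77 CPM. Mpeg1, which encodes perforin-2 of macrophages, went from 27.6, 40.1 and 36.3 CPM to 17.5, 19.6 and 25.2 CPM (log2 fold change -0.74, standard error 0.14; edgeR, adjusted p = 0.0142). C1qa, a subunit of the first complement component that resident macrophages make, was at 74.8, 119.8 and 109 CPM against 45.1, 45.5 and 69.8 CPM (log2 fold change -0.92, standard error 0.18; edgeR, adjusted p = 0.0160). Csf1r, the receptor on which macrophages depend, averaged 84.3 ± 3.98 CPM (SD, n = 3) and 82.8 ± 0.508 CPM (SD, n = 3), with overlapping groups (log2 fold change -0.02, standard error 0.07; edgeR, adjusted p = 0.927). Mrc1, a mannose receptor that the study stained as a macrophage marker, was at 36.9, 47.7 and 40.0 CPM against 29.6, 26.9 and 31.6 CPM, apart but short of the threshold (log2 fold change -0.50, standard error 0.14; edgeR, adjusted p = 0.0682). The list kept 1 call without mouse 27, 28 or 29 and 3 without mouse 26, had 7 without mice 27 and 30, and Mpeg1 and C1qa lost theirs without mouse 27, 28 or 29 (edgeR, adjusted p = 0.0687 to 0.104). Lists of T and natural killer cells, B and plasma cells and neutrophils had 0 of 17, 0 of 12 and 0 of 11 genes called by edgeR, with 3, 1 and 0 at an unadjusted p under 0.05 and 0 calls by limma or DESeq2. Their medians were -0.63, -0.09 and 0.06, and the first was -0.37 without mouse 26. Of the 17 T and natural killer cell genes 13 were below 0. In 6 of these 17 the deleted mice were all lower and in 1 all higher, against 10.2% and 8.79% of all genes. The macrophage genes themselves summed to 1919, 1984 and 1948 CPM against 1953, 1715 and 1802 CPM, so that the sum overlapped between the cystic groups. Such a sum is set mainly by the most abundant genes, while 19 of the 20 log2 fold changes were below 0. In noncystic Pkd2 +/+ mice the sum was 2222 to 2346 CPM. The summed levels of the other 3 lists, 10.5 to 16.5, 24.7 to 36.3 and 5.23 to 7.55 CPM over the 6 cystic mice, overlapped between the groups.

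Chemokines draw leukocytes from blood into tissue. Of 27 tested chemokines and cytokines 9 were lower, 1 was higher, and the median was -0.95. Ccl2, the main ligand of Ccr2, was at 2.79, 6.12 and 2.68 CPM against 1.01, 1.17 and 1.59 CPM (log2 fold change -1.61, standard error 0.34; edgeR, adjusted p = 0.0211). Ccl9, a chemokine of myeloid cells, went from 11.2, 6.46 and 6.68 CPM to 1.83, 2.15 and 3.51 CPM (log2 fold change -1.70, standard error 0.32; edgeR, adjusted p = 0.0111). Csf1, the growth factor of macrophages, was at 70.3, 80.8 and 78.9 CPM against 36.6, 44.4 and 63.0 CPM (log2 fold change -0.68, standard error 0.15; edgeR, adjusted p = 0.0251). The other 6 lower members were Ccl7, Ccl8, Ccl12, Cxcl16, Il33 and Il34, and Il34 is the other ligand of Csf1r. Cxcl12, which retains progenitors and guides vessels, rose from 166, 216 and 164 CPM to 322, 304 and 274 CPM (log2 fold change 0.72, standard error 0.11; edgeR, adjusted p = 0.00281), and noncystic kidneys averaged 441 and 396 CPM. Cxcl12 was called in every fit with a mouse left out. The count of lower members was 0 without mouse 28 or 29, 1 without mouse 26, 2 without mouse 27 and 6 without mice 27 and 30, and in those single-mouse fits the adjusted p of the lost calls of Ccl2, Ccl9 and Csf1 lay between 0.0631 and 0.132 by edgeR.

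Interferon-stimulated genes had 8 of 22 lower and 0 higher, with a median of -0.80. Oas1a, an antiviral enzyme, was at 10.7, 20.2 and 13 CPM against 5.62, 5.38 and 5.92 CPM (log2 fold change -1.37, standard error 0.21; edgeR, adjusted p = 0.00323). Mouse 26 was the highest for it and for Oasl2, at 51.5 CPM against 19.8 and 28.8 CPM in mice 25 and 27 and 12.1, 14.9 and 17.3 CPM in the deleted mice (log2 fold change -1.17, standard error 0.25; edgeR, adjusted p = 0.0204). Oas1a was called in every fit with a mouse left out, and Oasl2 lost its call without mouse 27, 28 or 29 (edgeR, adjusted p = 0.0525 to 0.132). The list had 16 lower members without mouse 25, 2 without mouse 26 or 27, 1 without mouse 28 or 29 and 5 without mice 27 and 30. Without mouse 26, 1 member was also higher and the median was -0.39. The summed level was 484, 973 and 631 CPM against 476, 457 and 503 CPM, with mouse 25 inside the range of the deleted mice and mouse 26 far above the rest.

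Complement genes had 6 of 19 lower and 0 higher, with a median of -0.27. C3, the component on which the complement pathways meet, went from 156, 118 and 117 CPM to 21.1, 14.5 and 57.4 CPM, without overlap (log2 fold change -2.07, standard error 0.36; edgeR, adjusted p = 0.00820, and 0.0577 without mouse 28). The noncystic groups averaged 30.1 and 27.2 CPM. The other 5 were C1qa, C1qb and C1qc, C4b and Cfp. C1qa, C1qb and C1qc are also on the macrophage list and were counted there too. The complement list had 0 calls without mouse 28, 1 without mouse 27 or 29, 4 without mouse 26 and 5 without mice 27 and 30. The median was -0.56 without mouse 26, and edgeR with robust dispersions called 1 gene.

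Among the 6 largest called falls at an average log2CPM of 1 or more were genes of acute-phase plasma proteins. Itih4, a protease inhibitor family member, was at 21.3, 3.87 and 9.42 CPM against 0.817, 0.391 and 3.32 CPM (log2 fold change -2.93, standard error 0.66; edgeR, adjusted p = 0.0307). Hp, the haptoglobin gene, went from 69.6, 31.0 and 102 CPM to 5.58, 3.47 and 24.3 CPM (log2 fold change -2.60, standard error 0.52; edgeR, adjusted p = 0.0174). Serpina3n, a serine protease inhibitor, was at 10.5, 4.85 and 5.41 CPM against 1.30, 1.17 and 3.56 CPM (log2 fold change -1.78, standard error 0.37; edgeR, adjusted p = 0.0201). For each of the 3 genes mouse 30 was the highest of the deleted mice and lay just below the lowest intact mouse. All lost their call without mouse 28 or 29, Hp and Itih4 also without mouse 27, and Itih4 also without mouse 25 (edgeR, adjusted p = 0.0711 to 0.165).

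Genes of tubule injury and repair had 8 of 26 lower and 0 higher, with a median of -0.49 and 23 below 0. Clu, the chaperone clusterin of damaged tubules, went from 1398, 1741 and 1536 CPM to 512, 611 and 1038 CPM (log2 fold change -1.11, standard error 0.19; edgeR, adjusted p = 0.00609), with noncystic averages of 285 and 295 CPM, and it was called in every fit with a mouse left out. Havcr1, kidney injury molecule 1, was at 5.15, 8.22 and 3.67 CPM against 1.01, 0.929 and 3.22 CPM (log2 fold change -1.72, standard error 0.39; edgeR, adjusted p = 0.0311), and mouse 30 again came near the intact mice. Vcam1, an adhesion molecule that overlaps a gene on the other strand, was at 28.3, 34.7 and 26.2 CPM against 17.4, 11.9 and 15.1 CPM (log2 fold change -1.003, standard error 0.17; edgeR, adjusted p = 0.00717, and 0.0514 without mouse 29). The others were Lcn2, Krt7, Krt18, S100a11 and Vim. The list had 14 calls without mouse 25, 12 without mouse 30, 2 without mouse 28 or 29, 3 without mouse 26, 4 without mouse 27 and 9 without mice 27 and 30, and Havcr1 lost its call without mouse 26, 28 or 29 (edgeR, adjusted p = 0.110 to 0.169). Lgals3, the galectin-3 gene, which is on no list here, fell from 347, 386 and 355 CPM to 159.6, 199 and 212 CPM (log2 fold change -0.93, standard error 0.13; edgeR, adjusted p = 0.00175) and kept its call throughout.

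Elastic fibres are cores of elastin on a scaffold of microfibrils. Of 19 tested elastic fibre genes 6 were lower and 0 higher, with a median of -0.28. Eln, the elastin gene, was at 877, 677 and 659 CPM against 307, 341 and 376 CPM, a log2 fold change of -1.11 (standard error 0.13; edgeR, adjusted p = 0.000704), and noncystic kidneys averaged 251 and 210.4 CPM. Mfap4, a microfibril protein, went from 98.4, 99.1 and 95.9 CPM to 41.9, 55.8 and 60.1 CPM (log2 fold change -0.90, standard error 0.12; edgeR, adjusted p = 0.00146). Both were called whichever mouse was left out, and both share exon sequence with a gene on the other strand. Fbln2, Efemp1, Mfap5 and Loxl1 were the other 4, and the list had 2 lower members without mouse 28 or 29 and 5 without mice 27 and 30. Its median was -0.17 without mouse 26.

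Among 30 collagens and matricellular genes 3 were lower and 0 higher, with a median of -0.23. Col8a1, a short-chain collagen of vessels and fibrotic tissue, went from 94.2, 38.7 and 52.7 CPM to 15.4, 15.4 and 26.6 CPM (log2 fold change -1.70, standard error 0.27; edgeR, adjusted p = 0.00428), and Col12a1, which binds collagen I fibrils, from 316, 458 and 311 CPM to 128, 232 and 216 CPM (log2 fold change -0.91, standard error 0.18; edgeR, adjusted p = 0.0160). Col3a1, a major fibrillar collagen, averaged 1284 ± 383 and 1278 ± 190.4 CPM (SD, n = 3 each), with overlapping groups and a log2 fold change of -0.01 (standard error 0.17; edgeR, adjusted p = 0.990). Col8a1 and Col12a1 were called in every fit with a mouse left out, and the list had 6 lower members without mouse 25, 5 without mouse 30 and 2 without mouse 26, 27, 28 or 29. Its median was -0.12 without mouse 26 and -0.11 without mouse 28. Of 13 fibroblast genes 2 were lower, Mfap5 and Pi16, which overlaps a gene on the other strand, and both lost their call without mouse 27, 28 or 29 (edgeR, adjusted p = 0.0525 to 0.176).

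The growth regulators that the study followed as proteins were also measured as RNA. Myc, a driver of proliferation, was at 28.9, 36.1 and 35.3 CPM against 26.4, 24.7 and 28.8 CPM, nearly touching, at a log2 fold change of -0.32 (standard error 0.12; edgeR, adjusted p = 0.223). Yap1, the effector of the Hippo pathway, was at 124, 135 and 147 CPM against 136, 145 and 132 CPM, with overlapping groups and a log2 fold change of 0.02 (standard error 0.08; edgeR, adjusted p = 0.932). Yap1 overlaps a gene on the other strand. Of 20 tested genes of the Yap and Taz pathway 1 was lower (5%, against 3.76% of the better measured genes in either direction). It was the coagulation factor receptor F3, whose call was lost without any one of mice 26 to 29 (edgeR, adjusted p = 0.0817 to 0.193). Of 24 genes of the Myc network 0 were called by edgeR, with 8 at an unadjusted p under 0.05, 0 called by limma and 1 by DESeq2. All 25 tested mitosis genes had a log2 fold change below 0, with a median of -0.20, but 0 passed the edgeR test, 0 were at an unadjusted p under 0.05 and 0 were called by limma or DESeq2. In 7 of the 25 the groups did not overlap with the deleted mice lower, against 10.2% of all genes, and the median was -0.10 without mouse 30. The DNA replication list had 0 of 26 called by edgeR, limma or DESeq2, 1 at an unadjusted p under 0.05 and a median of -0.09, which was 0.01 without mouse 26 or 29 and -0.20 without mouse 28.

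Of 26 genes of cyclic AMP signalling and Creb targets 2 were higher, Nr4a1 and Sik1, both immediate targets of Creb, and 0 were called without mice 27 and 30. The 2 calls are 7.69% of the list, against 3.76% of the better measured genes in either direction, too few for a result about the pathway. The list also had 0 calls without mouse 26, 27, 29 or 30 and 1 without mouse 28, while limma called 0 and DESeq2 called 3 higher. Nr4a1, a nuclear receptor, was at 20.7, 18.2 and 15.8 CPM against 27, 41.5 and 94.4 CPM, with mouse 30 far above the rest (log2 fold change 1.57, standard error 0.38; edgeR, adjusted p = 0.0411, and 0.157 without mouse 30), and its call was also lost without mouse 24, 26, 27 or 29 (edgeR, adjusted p = 0.0509 to 0.170). Sik1, a kinase, was at 51.3, 43.8 and 43.1 CPM against 56.8, 63.6 and 62.8 CPM (log2 fold change 0.41, standard error 0.10; edgeR, adjusted p = 0.0421). Its call was lost without mouse 19 or any one of mice 26 to 30 (edgeR, adjusted p = 0.0597 to 0.183). A list of early-response genes, which tissue handling is known to raise, summed to 843, 953 and 826 CPM against 658, 899 and 1059 CPM, also highest in mouse 30. It had 0 of 16 members called by edgeR and a median of -0.01, and its part in the values of Nr4a1 and Sik1 was not tested.

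Of 22 genes of the transforming growth factor beta and Bmp pathways 2 were lower and 0 higher (9.09%, against 3.76% of the better measured genes in either direction). They were the ligand Tgfb3, which overlaps genes on the other strand, and the receptor Tgfbr2. Both lost their call without mouse 27, 28 or 29 (edgeR, adjusted p = 0.101 to 0.164). Of 24 tested genes of the Wnt pathway 2 were higher, Sfrp2 and Lrp6, and 1 was lower, Dkk1, with a median of 0.03. Dkk1, a Wnt antagonist, fell from 6.5, 6.71 and 8.33 CPM to 2.88, 2.44 and 2.60 CPM (log2 fold change -1.44, standard error 0.25; edgeR, adjusted p = 0.00746, but 0.0551 without mouse 27 and 0.0535 without mouse 29). Sfrp2, a secreted Wnt binding protein that overlaps a gene on the other strand, was at 3.48, 3.92 and 4.61 CPM against 12.1, 5.77 and 6.59 CPM (log2 fold change 1.03, standard error 0.23; edgeR, adjusted p = 0.0311), and its call was lost without any one of mice 25 to 28 (edgeR, adjusted p = 0.0586 to 0.173). Lrp6, a Wnt coreceptor, was at 119, 136 and 120.3 CPM against 158, 166 and 145 CPM (log2 fold change 0.32, standard error 0.08; edgeR, adjusted p = 0.0427). It lost its call without 8 of the 12 mice, among them mice 25, 27, 28 and 29 (edgeR, adjusted p = 0.0546 to 0.207). The list had 0 calls without mouse 27 and 1 higher and 0 lower without mice 27 and 30, and its median ran from -0.09 without mouse 25 to 0.13 without mouse 26. Cdkn1c, a cell cycle inhibitor that podocytes express and that overlaps another gene, rose from 23.5, 44.3 and 51.5 CPM to 145, 85.0 and 77.2 CPM (log2 fold change 1.37, standard error 0.27; edgeR, adjusted p = 0.0153, but 0.0902 without mouse 28). Among the 21 lists without a call by edgeR were also glycolysis, cholesterol synthesis, the hypoxia response, the microRNA pathway and the primary cilium. Summed over the 21 lists, 48 members had an unadjusted p under 0.05, limma called 0, and DESeq2 called 4 higher and 2 lower.

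Nr4a1 was 1 of the 6 largest called rises at an average log2CPM of 1 or more, and the other 5 were genes of low level. Dnah11, a dynein heavy chain of motile cilia, was at 0.968, 1.27 and 0.942 CPM against 3.75, 3.18 and 2.79 CPM (log2 fold change 1.61, standard error 0.23; edgeR, adjusted p = 0.00216). It was called whichever mouse was left out, but it overlaps a gene on the other strand. Gucy2g, a receptor guanylyl cyclase, went from 0.697, 3.87 and 1.55 CPM to 7.45, 7.09 and 5.87 CPM (log2 fold change 1.77, standard error 0.38; edgeR, adjusted p = 0.0230), and lost its call without mouse 27, 28 or 29 (edgeR, adjusted p = 0.0916 to 0.112). Cntn1, the adhesion protein contactin 1, was at 0.503, 0.881 and 0.565 CPM against 3.12, 1.81 and 1.11 CPM (log2 fold change 1.64, standard error 0.40; edgeR, adjusted p = 0.0398). Slitrk6, a leucine-rich repeat membrane protein, was at 0.890, 0.979 and 0.942 CPM against 3.99, 2.35 and 1.54 CPM (log2 fold change 1.48, standard error 0.34; edgeR, adjusted p = 0.0317). For both, mouse 28 was the highest and mouse 30 the lowest of the deleted mice. The same order held for Vstm2b, an immunoglobulin domain membrane protein that overlaps a gene on the other strand, at 0.736, 0.636 and 1.22 CPM against 4.04, 2.30 and 1.35 CPM (log2 fold change 1.56, standard error 0.38; edgeR, adjusted p = 0.0389). Without mouse 25, 27, 28 or 29 none of these last 3 genes was called (edgeR, adjusted p = 0.0533 to 0.250), and calls of Cntn1 and Vstm2b were also lost without some noncystic mice.

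Several genes with small p-values were on no list. Lrrc66, a leucine-rich repeat membrane protein of little known function, was at 4.76, 4.36 and 4.14 CPM against 11.1, 9.98 and 9.67 CPM, a log2 fold change of 1.21 (standard error 0.12; edgeR, adjusted p = 0.000594). Cpn1, a carboxypeptidase that trims kinins, went from 77.3, 67.0 and 79.1 CPM to 151, 146 and 117 CPM (log2 fold change 0.89, standard error 0.11; edgeR, adjusted p = 0.000849), and Kng2, a precursor of those kinins, from 215, 196 and 187 CPM to 304, 318 and 309 CPM (log2 fold change 0.64, standard error 0.07; edgeR, adjusted p = 0.000704). Fgf1, a fibroblast growth factor, was at 44.4, 44.3 and 40.5 CPM against 70.6, 65.3 and 65.4 CPM (log2 fold change 0.64, standard error 0.08; edgeR, adjusted p = 0.00122). Gxylt2, a glycosyltransferase that extends sugars on Notch, fell from 10.9, 10.6 and 9.84 CPM to 4.47, 4.40 and 4.86 CPM (log2 fold change -1.19, standard error 0.18; edgeR, adjusted p = 0.00320). These 5 genes kept their call whichever mouse was left out. Their groups did not overlap, which the rule for naming them required.

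**Figure D5:**
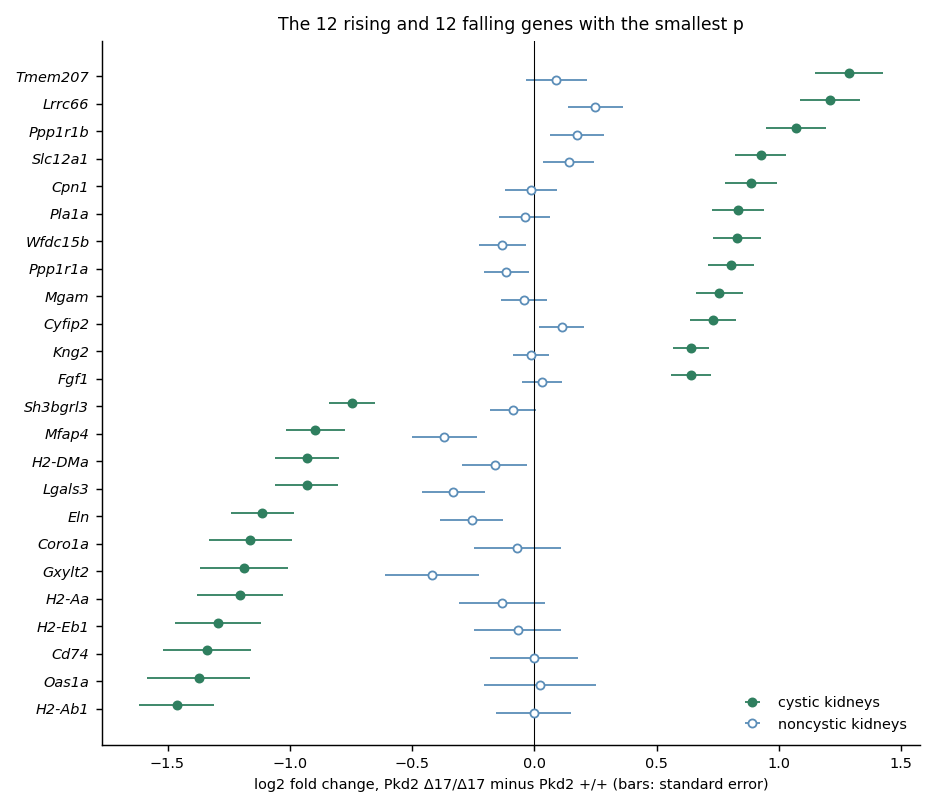
Log2 fold change of Pkd2 Δ17/Δ17 against Pkd2 +/+ (horizontal axis, bars are standard errors) in cystic (filled) and noncystic (open) kidneys for the 12 rising and 12 falling genes with the smallest p in cystic kidneys. The cystic values, which chose the genes, run from -1.46 to 1.29, and the noncystic values lie nearer 0.

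To ask whether the deletion acted differently in cystic and noncystic kidneys, the difference of both effects was tested. It passed for 3 genes (0.0122%): Wfdc15b, Ppp1r1a and H2-Ab1. Wfdc15b, a whey acidic protein of the thick ascending limb list, was at 54.1, 54.3 and 52.4 CPM in cystic Pkd2 +/+ mice and at 89.4, 91.0 and 105 CPM in cystic Pkd2 Δ17/Δ17 mice, and in noncystic mice at 178, 179 and 149 CPM against 174, 137 and 150.3 CPM. The rise in cystic kidneys (0.83 on the log2 scale, standard error 0.10) stood beside -0.13 (standard error 0.10) in noncystic ones, and the interaction was 0.96 (edgeR, adjusted p = 0.0359). Its value for Ppp1r1a was 0.92 and for H2-Ab1 -1.46, with the same adjusted p of 0.0359 in the edgeR test. For the other genes named here a different effect in cystic and noncystic kidneys was not shown. The number of genes in this test ran from 0 to 61 with single mice left out: it was 0 without mouse 19, 23, 24, 27 or 29 (with 1715 to 1849 genes whose unadjusted p was under 0.05), 1 without mouse 21 or 28, 8 and 10 without mice 20 and 22, 61, 48 and 57 without mice 25, 26 and 30, and 20 without mice 27 and 30 together.

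Around Pkd2, 6 of 252 other tested genes within 10 Mb were called (2.38%, against 2.23% of all genes), and 0 of 26 within 1 Mb by edgeR. Zfp605, a zinc finger gene at chromosome 5, 110110092 to 110129794, was at 13.3, 12.1 and 12.7 CPM against 6.83, 7.58 and 6.16 CPM in cystic kidneys (log2 fold change -0.89, standard error 0.14; edgeR, adjusted p = 0.00477). In noncystic kidneys it was at 11.5, 9.12 and 11.5 CPM against 3.87, 4.42 and 4.62 CPM (log2 fold change -1.31; edgeR, adjusted p = 0.00446). It was lower with the deletion in all 6 deleted mice, it was the 1 gene called between the noncystic groups, and it shares exon sequence with a gene on the other strand. The other 5 were Rasgef1b, Tgfbr3 and Pxmp2, which were higher, and Tmem150c and Selplg, which were lower. Tgfbr3, Pxmp2 and Tmem150c share exon sequence with another gene. They had adjusted p-values from 0.0111 to 0.0395 in the edgeR test and lost the call without mouse 27, 28 or 29. Genes other than Pkd2 whose longest annotated 3′-UTR holds a miR-17 seed match were called as follows: 8 higher and 8 lower of 677 with an 8-base match (2.36%), 17 and 21 of 1602 with a 7-base match (2.37%), and 253 and 223 of 14540 with none (3.27%). Their medians were 0.01, 0.02 and -0.02.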

How the data were processed

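Whole right kidneys of 12 mice were sequenced, 3 in each of 4 groups taken from the labels, and nothing in the labels tells whether mice of a group were littermates. The authors trimmed reads with Trim Galore 0.6.3 and aligned them with STAR 2.5.3a to GRCm38 with Ensembl release 94, and the deposited values are raw read counts per gene; the strand setting of the counting is not given in the sources used here. An average log2CPM of -3 was the cutoff for testing (24642 of 54532 genes passed). Here the counts were fitted in edgeR 4.0.16 (R 4.3.3) with TMM scaling, the quasi-likelihood test, all 12 mice in 4 group means (8 degrees of freedom left) and Benjamini-Hochberg adjustment over all genes tested, with a threshold of 0.05. CPM are TMM-scaled. The study itself used limma-trend, which was run here (limma 3.58.1) as an alternative beside DESeq2 1.42.0, other scalings, cutoffs and covariates, and fits without single mice. On simulated counts for the comparison of the cystic groups (200 of 24642 genes changed, 5 draws) the edgeR test recovered 88% of 2-fold and 99.6% of 4-fold changes. Of its calls 6.18% were false, against 5.28% for limma-trend (5 draws) and 14.2% for DESeq2 (2 draws). The simulated mice had the same fitted spread in every group and no outlying mice, and changed genes had an average log2CPM of 1 or more. These rates may therefore not hold for the real counts. Within groups no pair of libraries agreed to within counting noise. Total counts limit the precision of low genes. Coordinates are of GRCm38, and 99.9% of the gene identifiers matched the annotation used.

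The genes and lists were chosen with earlier results of these data known. Named genes were those the study's text names, the 12 rising and 12 falling called genes of smallest p and the 6 of largest change in each direction without overlap between groups and with an average log2CPM of 1 or more, the 3 called genes of smallest p per list and direction, defining markers of lists, called genes within 10 Mb of Pkd2, and the 3 genes of smallest p in the interaction. Some genes that this rule names are not reported here. Other called members of lists are given by name only, after their values were seen.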

Additional observations from a re-analysis of the deposited data

Results flagged for a closer look

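For 3 genes the effect of the Pkd2 motif deletion differed between cystic and noncystic kidneys by the test of the difference itself (edgeR, adjusted p = 0.0359 for each). That number was not stable. It was 0 to 61 with single mice left out, 0 with the filterByExpr cutoff and 137 with DESeq2. The difference on the log2 scale was 0.96 for Wfdc15b, whose effect was 0.83 in cystic and -0.13 in noncystic kidneys. It was 0.92 for Ppp1r1a, whose effect was 0.80 in cystic and -0.11 in noncystic kidneys. H2-Ab1 gave -1.46, with an effect of -1.46 in cystic and -0.00 in noncystic kidneys. In each of the 3 genes the noncystic groups overlapped and the cystic groups did not. No cause of these differences was tested. The groups of 3 mice were too small for a test of single outlying mice.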

How the results depend on the processing

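No paired analysis was possible because the groups share no mouse numbers. Pkd2 stayed higher and called under every alternative run, with log2 fold changes of 0.49 to 0.57. The number of genes called between the cystic groups was 549. It became 1090 with DESeq2, 1639 without a cutoff on low counts, 167 with the cystic groups fitted alone, 119 at an adjusted p of 0.01, 322 without mice 27 and 30 (chosen after seeing the data), and 118 to 861 with single mice left out. Between the noncystic groups it was 1, with 3 by DESeq2, 124 without a cutoff, 2 with those groups alone, and 0 to 2 with single mice left out (0 without mouse 19 or 22, with 1256 and 2390 genes at an unadjusted p under 0.05). The interaction gave 3 genes, but 9 with limma, 137 with DESeq2, 8 with library totals, 566 without a cutoff, 0 with the filterByExpr cutoff (1688 at an unadjusted p under 0.05), 20 with sex as a covariate, 20 with robust dispersions, 20 without mice 27 and 30, 0 at an adjusted p of 0.01, and 0 to 61 with single mice left out. With the cystic groups fitted alone the thick ascending limb list kept 11 calls, MHC class II 6 and elastic fibre genes 3, and the macrophage, interferon-stimulated, complement, tubule injury, collagen, proximal tubule, thin limb, fatty acid oxidation and renin-angiotensin lists 1 each. The cause of these changes was not tested.

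Direction turned for 4 uncalled genes near 0 or of the adrenal gland. With sex as a covariate Cdh16 was at -0.0162 and Yap1 at -0.00204 on the log2 scale. With single mice left out, Pkd1 ran from -0.0481 to 0.0929, Yap1 from -0.0371 to 0.0855, Cdh16 from -0.0552 to 0.0410 and Cyp11b2 from -3.71 to 7.02. Cyp11b2, the aldosterone synthase of the adrenal gland, was at -0.80 without mice 27 and 30. With 3 mice a group, genes of low count have wide errors, and a missed threshold does not show that groups were alike.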
